A study of Homo sapiens with 4 samples.

Results

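The genes described here are the core subunits of telomerase (TERT, TERC, DKC1, NOP10 and NHP2) and 5 genes of shelterin, the protein cap of chromosome ends (TERF1, TERF2, TERF2IP, POT1 and TINF2). They are 10 of the 60554 rows of the count table, and 9 of them belonged to the 12662 genes that averaged at least 50 normalised counts. TERC, the telomerase RNA, did not. The set was selected on measured values, because TERT is among the mRNAs most enriched with miR-491-5p, so the values of TERT are given as a description.

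The study asked which RNAs are bound to miR-491-5p inside cells, using IGROV1-R10, an established human ovarian cancer cell line. The cells of 2 transfections received, at 60 nM, either a biotin-carrying miR-491-5p duplex or a biotin-carrying control, the worm miRNA that the design text calls cel-miR-65. Once nuclei were spun out, 10% of each lysate was set aside as the input, and the remainder was mixed with streptavidin beads for 4 h and washed 5 times to give the pull-down. There were therefore 4 groups with 1 library each, and every library held RNA pooled from 3 experiments. The deposited counts per gene summed to between 47679684 and 62582646.

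Telomerase adds telomere repeats to chromosome ends: TERT is its reverse transcriptase, TERC carries the RNA template, and dyskerin (DKC1), NOP10 and NHP2 bind and stabilise TERC. Shelterin covers the repeats, with TERF1 and TERF2 on the double-stranded part, POT1 on the single-stranded overhang, TINF2 as the bridge between them and TERF2IP (RAP1) attached to TERF2. Most somatic cells keep TERT transcription off, while most carcinomas express it at a low level. A miRNA lowers the stability or translation of mRNAs that pair with it, mainly through the bases of its seed.

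The mature miRNA given to the cells is shown because its seed, bases 2 to 8, in capitals, defines the sequence that would pair with an mRNA. It lies on chromosome 9 at 20716120 to 20716141 on the plus strand, per RefSeq on GRCh38.p14.

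hsa-miR-491-5p: aGUGGGGAacccuuccaugagg

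The reverse complement of this seed, written as DNA, is TCCCCAC. Among the 2370 mature miRNA names in the RefSeq table, 1 (miR-491-5p itself) has this seed. The sequence available for the mRNAs was restricted to the first 50 transcribed bases at each gene start, where the motif occurred, on the transcribed strand, in 194 of 35116 genes (0.552%) and in 0 of the 7 members with an entry. The shorter match to bases 2 to 7, CCCCAC, which every longer match contains, occurred in 590 genes (1.68%) and again in 0 of 7 members. The rest of each transcript was not searched.

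All ratios below are log2 ratios of normalised counts plus 1. The pull-down ratio and the input ratio set the miR-491-5p library over the control library, and the enrichment is the pull-down ratio minus the input ratio on the log2 scale, as the design text defines it. The values in parentheses are 95% counting intervals, which cover counting error only, and as the labels name no molecular identifiers the reads may not all be separate molecules. A call of higher or lower needed a difference of 2-fold or more and an interval that excluded 0. Where 4 values stand in a row, they are the miR-491-5p pair of libraries (input, pull-down) and then the control pair (input, pull-down). With 1 library in each group, a difference between the miRNAs has no replicate check and no p-value.

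The line markers were present, with 10 of 10 ovarian carcinoma and epithelium markers detected in each library, although MSLN fell under the count minimum. The summed normalised count of 7 hepatocyte markers was 8.36, 22.6, 3375 and 12.4, with 4, 3, 0 and 3 of the 7 at 0. That of 3 fibroblast markers was 232, 32.3, 708 and 37.3. That of 4 immune markers, none of which reached the count minimum, was 14.6, 20.2, 48.8 and 16.0. The control input was therefore the highest of the 4 libraries in hepatocyte, fibroblast and immune markers. It was also the highest in the ovarian carcinoma and epithelium markers, which summed to 120928, 87128, 153347 and 96722. The control input enters the enrichment, the input ratio and the control beads over input. The pull-down ratio and the miR-491-5p beads over input do not use its count of a gene. The size factors and the count minimum behind them were taken over all 4 libraries. The part of these markers' RNA in the results below was not tested. Scaling by total counts instead of DESeq2 size factors moved the median of all genes tested by 0.18 for the enrichment, 0.16 for the pull-down ratio, -0.02 for the input ratio, 0.32 for the miR-491-5p beads over input and 0.14 for the control beads over input, so values smaller than these shifts can change sign with the scaling.

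Of the 9 members tested, TERT alone had more RNA on the miR-491-5p beads than in any other library. TERT (ENSG00000164362, chromosome 5, 1253147 to 1295069, minus strand, hg38) had 18 and 187 reads in the miR-491-5p input and pull-down, and 35 and 39 in those of the control. The normalised counts were 18.8, 151, 45.0 and 34.6. The miR-491-5p pull-down was thus the high library and the miR-491-5p input the low one, with the control pair between them.

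The TERT pull-down ratio was 2.09 (1.60 to 2.59), or 4.27-fold, and its input ratio was -1.21 (-2.03 to -0.40). The input ratio uses the TERT count of the control input, where the hepatocyte markers summed to 3375, and the pull-down ratio does not. In RNA of whole cultures, fewer cells that express a gene and less RNA per cell cannot be told apart. The enrichment of 3.31 (2.36 to 4.26), or 9.91-fold, thus came in part from more TERT reads on the beads and in part from fewer in the miR-491-5p input. It ranked 11th from the top of 12662 genes, as the pull-down ratio did, and the input ratio ranked 32nd from the bottom. TERT met the count minimum for these genes, with a mean of 62.4, only through its miR-491-5p pull-down (151). Its normalised counts of 18.8, 45.0 and 34.6 elsewhere were each below that minimum. The ranks and calls of TERT among the genes tested thus depend on the library in which it was high. An exact conditional interval on the raw counts, without a pseudocount, an alternative added after the data were seen, gave an enrichment of 3.37 (2.35 to 4.43). The 18 reads of the miR-491-5p input were the fewest behind it.

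Of the 9 members tested, 1 was called higher by enrichment, TERT, against 4.46% of all genes tested, and 0 were called lower, against 5.32%. By pull-down ratio 1 was called higher (TERT) against 2.5% of all genes, and 0 lower against 3.17%. By input ratio 0 were called higher against 0.727%, and 1 lower (TERT) against 0.513%. These contrasts chose the set, so nothing is read from the counts that include TERT. With total counts the share of higher genes among all calls was 66.6% rather than 45.6% for the enrichment and 66.5% rather than 44.0% for the pull-down ratio.

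**Figure D1:**
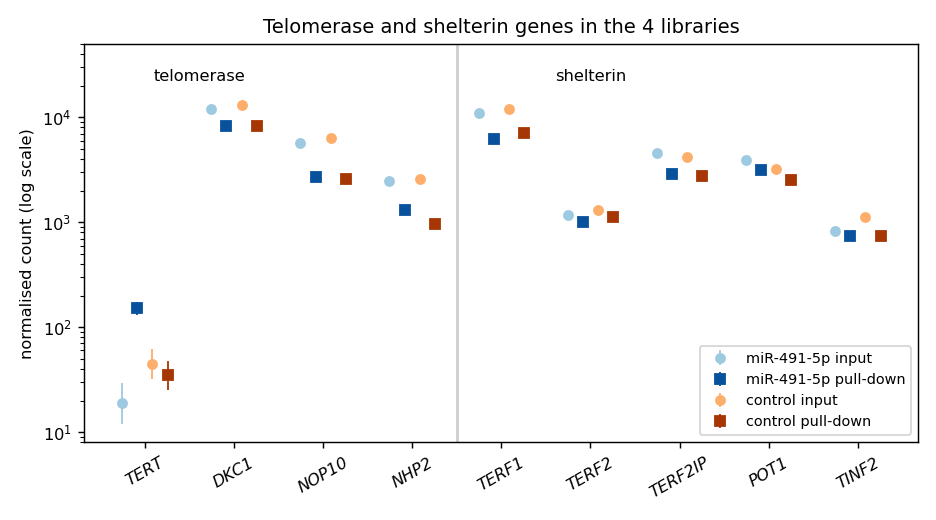
Normalised counts of the 9 members tested in the 4 libraries, on a log axis, with 95% counting intervals that are mostly smaller than the points. TERT has its highest point in the miR-491-5p pull-down (151), whereas the other 8 genes are lower in each pull-down (squares) than in the input of the same transfection (circles). TERC, with 0 or 1 read per library, is not drawn.

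TERC (ENSG00000270141, chromosome 3, 169764520 to 169765060, minus strand) was close to absent from the table, with 1 read in each miR-491-5p library and 0 in each control library. A floor of 3 counts corresponds to normalised counts of 3.13, 2.43, 3.85 and 2.66, so all 4 libraries lay under it and no fold is given. Of its 541 exonic bases, 438 are also annotated as another gene on the same strand, which had 0 reads. Reads that overlap 2 genes were not counted, so only the other 103 bases could collect reads. RefSeq places TERC at 169764610 to 169765060, and the other gene spans 169764610 to 169765047. Most of these 103 bases thus lie outside the RefSeq gene, and the count says little about the level of the RNA.

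The protein partners of TERC were abundant and showed little of the TERT pattern. DKC1 (ENSG00000130826, chromosome X, 154762742 to 154777689), the pseudouridine synthase that anchors the complex, had normalised counts of 11914, 8213, 13088 and 8238. Its 2 pull-downs were nearly equal, and both were below both inputs. The DKC1 enrichment was 0.13 (0.08 to 0.19), and its pull-down ratio of -0.00 (-0.05 to 0.04) turned to 0.15 with total counts. DKC1 hosts small RNA genes that share 246 of its exonic bases when their overlap is counted once, and these had 0 reads.

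NOP10 (ENSG00000182117, chromosome 15, 34341713 to 34343177) encodes the smallest protein of the complex. Its normalised counts were 5666, 2686, 6388 and 2589. Both pull-downs were far below both inputs, and the libraries of the 2 miRNAs were close within each kind. The NOP10 enrichment was 0.23 (0.14 to 0.32).

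NHP2 (ENSG00000145912, chromosome 5, 178149460 to 178153967) encodes the remaining protein that binds TERC with dyskerin. Its normalised counts were 2465, 1307, 2576 and 971, so the inputs were alike and the miR-491-5p pull-down was above the control pull-down. The pull-down ratio was 0.43 (0.32 to 0.54), the input ratio -0.06 (-0.15 to 0.02) and the enrichment 0.49 (0.35 to 0.63), the highest of the 8 members other than TERT. NHP2 shares 414 of its 1510 exonic bases with RMND5B on the other strand, counting ignored strand, and RefSeq lists 2 NHP2 pseudogenes, so its counts are uncertain.

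The shelterin genes among the members had small enrichments, none of them called. ACD, a shelterin gene outside the members, was called higher at 1.26 and is described below. TERF1 (ENSG00000147601, chromosome 8, 73008864 to 73048122), which binds double-stranded repeats, had normalised counts of 10908, 6177, 12063 and 7075, with both pull-downs below both inputs. Its enrichment was -0.05 (-0.11 to 0.01), and 0.13 with total counts. RefSeq lists 7 TERF1 pseudogenes, whose reads may be shared with it.

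TERF2 (ENSG00000132604, chromosome 16, 69355561 to 69408571), which protects ends from fusion, had normalised counts of 1182, 1010, 1296 and 1112. The 4 libraries lay close together, and the TERF2 enrichment was -0.01 (-0.17 to 0.16), or 0.17 with total counts. TERF2IP (ENSG00000166848, chromosome 16, 75647786 to 75761872), the TERF2 partner RAP1, had 4557, 2870, 4142 and 2751. Both TERF2IP pull-downs were below both inputs, and its enrichment was -0.08 (-0.17 to 0.02), or 0.10 with total counts. TERF2IP shares 176 exonic bases with KARS1 on the other strand, and its span in the table runs past the end of the RefSeq gene.

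POT1 (ENSG00000128513, chromosome 7, 124822386 to 124929983), which holds the single-stranded overhang, had normalised counts of 3935, 3123, 3202 and 2516. Both POT1 values with miR-491-5p exceeded the matching control value, by a pull-down ratio of 0.31 (0.24 to 0.38) and an input ratio of 0.30 (0.22 to 0.37). The 2 ratios cancelled in the enrichment, which was 0.01 (-0.09 to 0.12) and changed sign, to -0.00080, with edgeR's TMM scaling.

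TINF2 (ENSG00000092330, chromosome 14, 24239643 to 24242674), the bridging subunit, had normalised counts of 823, 740, 1131 and 745. Its high library was the control input, and the other 3 lay together. The TINF2 pull-down ratio was -0.01 (-0.15 to 0.12), or 0.15 with total counts, the input ratio -0.46 (-0.60 to -0.32) and the enrichment 0.45 (0.25 to 0.64). Its enrichment thus came from the input ratio, whose denominator is the library with the hepatocyte markers, while that of NHP2 came from the pull-down ratio.

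Across the 8 members other than TERT, the enrichment had a median of 0.07 and ran from -0.08 (TERF2IP) to 0.49 (NHP2), against a median of 0.00 over all genes tested. Of these, DKC1, NOP10, NHP2 and TINF2 had an enrichment above 0 with an interval that excluded it. The other 4 shelterin genes had intervals that included 0, but with total counts the intervals of all 8 genes lay above 0.

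**Figure D2:**
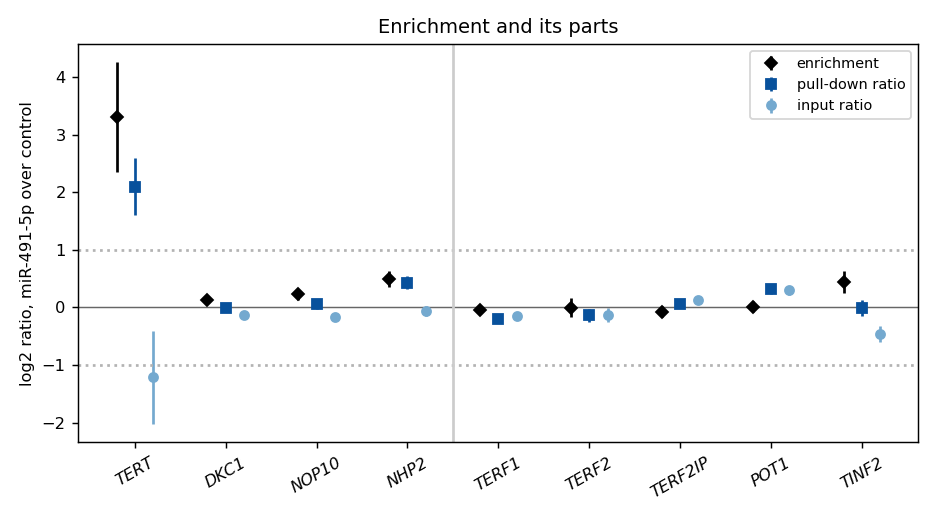
Enrichment (diamonds) of each member with its pull-down ratio (squares) and input ratio (circles), as log2 ratios of miR-491-5p over control with 95% counting intervals; dotted lines mark 2-fold. TERT alone lies past the dotted lines, at 3.31, 2.09 and -1.21, and the enrichment of the other 8 genes lies between -0.08 and 0.49.

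The beads were also compared with their own input within each transfection. TERT was 2.94 (2.25 to 3.63), or 7.68-fold, above its input on the miR-491-5p beads and at -0.37 (-1.02 to 0.29) on the control beads. The other 8 members were below 0 on both kinds of beads, with all 8 intervals on each excluding 0. The lowest values were those of NOP10, -1.08 (-1.14 to -1.01) on the miR-491-5p beads and -1.30 (-1.37 to -1.24) on the control beads, and NHP2, -0.91 (-1.01 to -0.82) and -1.41 (-1.51 to -1.30). The nearest to 0 were TINF2 on the miR-491-5p beads, at -0.15 (-0.29 to -0.02), and TERF2 on the control beads, at -0.22 (-0.34 to -0.10). With total counts 2 of the 8 changed sign on the miR-491-5p beads, TINF2 to 0.17 and TERF2 to 0.09, and none on the control beads.

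On the miR-491-5p beads 1 of the 9 members was called higher (TERT), against 5.34% of all genes tested, and 1 lower (NOP10), against 4.96%. On the control beads 0 were called higher, against 8.61%, and 2 lower (NOP10 and NHP2), against 10% of all genes. The median of all genes was -0.15 on both kinds of beads. The shelterin members had medians of -0.33 on the miR-491-5p beads and -0.59 on the control beads, or -0.01 and -0.45 with total counts. With total counts NOP10 was no longer called on the miR-491-5p beads, and the share of higher genes among all calls was 90.8% rather than 51.8% there and 62.6% rather than 46.2% on the control beads.

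The difference between the TERT values on the 2 kinds of beads equals its enrichment, which chose the set, so the counts that follow are a description. Of the 676 genes called higher on the miR-491-5p beads, 94 were at or below 0 on the control beads. Besides TERT, 1 gene matched or exceeded the TERT value on the miR-491-5p beads while at or below 0 on the control beads. It was HP, a hepatocyte marker with 0, 10, 270 and 2 reads in the 4 libraries. The HP value on the miR-491-5p beads, 3.18 (-0.91 to 7.28), was not called, as its interval included 0. HP met the count minimum only through the control input, with normalised counts of 0, 8.09, 347 and 1.78. HP was named after its values were seen. BCL2L1, the apoptosis inhibitor gene that earlier results name as a target, was at 0.81 on the miR-491-5p beads and -0.46 on the control beads, and shares 43.0% of its exonic bases with other genes.

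**Figure D3:**
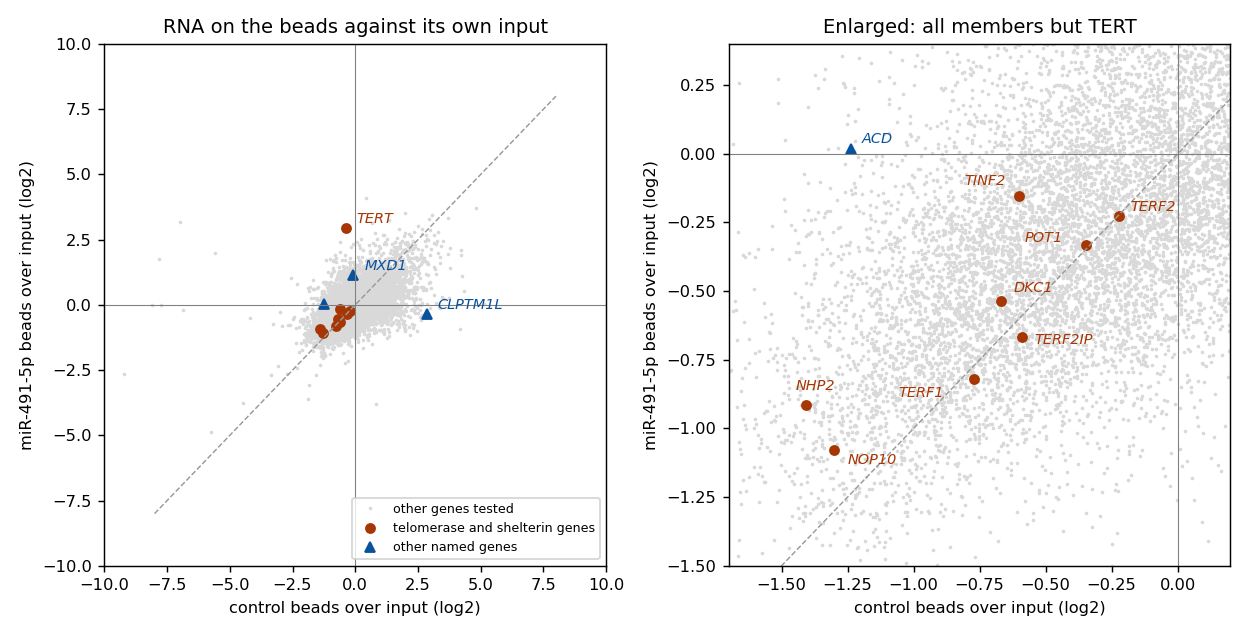
Beads over input with the control (horizontal axis) and with miR-491-5p (vertical axis), as log2 ratios, for the 12662 genes tested; the dashed line marks equal values, and the right panel enlarges the region of the other 8 members. TERT lies at 2.94 on the vertical and -0.37 on the horizontal axis, while the other members lie below 0 on both axes.

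Pooling both transfections allowed the only replicated comparison, of 2 pull-downs against 2 inputs with the transfection as a block. It leaves 1 residual degree of freedom, and the 2 pairs had different miRNAs, so it asks which members differ from input with either. By edgeR's quasi-likelihood test with Benjamini-Hochberg adjustment over all genes tested, 2 of the 9 members fell on the beads at an adjusted p under 0.05 and at least 2-fold, against 2.65% of all genes, and 0 rose, against 5.58%. They were NOP10, at -1.04 (SE 0.22, edgeR adjusted p = 0.0250), and NHP2, at -1.01 (SE 0.24, edgeR adjusted p = 0.0326), each lower in 2 of 2 transfections. Without the block NHP2 was at -0.998, just under 2-fold.

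TERF1 was at -0.65 (edgeR adjusted p = 0.0902), and its adjusted p was 0.0462 when edgeR used DESeq2 size factors and 0.0298 by DESeq2's Wald test. TERT was at 1.48 (SE 0.69, edgeR adjusted p = 0.176), above input in 1 of 2 transfections, and its adjusted p ran from 0.161 to 0.239 over the other settings. The split of all genes depended on the scaling: edgeR with TMM called 707 higher and 335 lower, while edgeR with DESeq2 size factors called 540 higher and 662 lower and put the median of all genes 0.15 lower. NOP10 and NHP2 stayed below -1 and past the threshold with both of these scalings. EdgeR was not run with total counts. With total counts the ratio of NOP10 was -0.76 on the miR-491-5p beads and -1.16 on the control beads. That of NHP2 was -0.59 and -1.27.

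Levels were compared between genes per kilobase of exon. In every library NOP10 was the highest (10228 normalised counts per kilobase in the miR-491-5p input), DKC1 followed (2835) and TERT was the lowest of the 9 (4.07). NHP2, TERF1 and TERF2IP came after DKC1 in an order that varied by library, followed by POT1, TINF2 and TERF2. In the miR-491-5p pull-down NHP2 and TERF2IP could not be separated, with a ratio of 1.02 (0.961 to 1.08), and in the control pull-down neither could TERF2IP and TERF1, at 1.02 (0.975 to 1.06).

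TERT remained the lowest member on the miR-491-5p beads, at 32.8 per kilobase against 180 for TERF2, its nearest neighbour in the order. In the miR-491-5p input TERF2 was 51.6 times as high as TERT per kilobase (32.5 to 87.4), and on the miR-491-5p beads 5.48 times (4.70 to 6.43). By mean level per kilobase, 2.79% of the genes tested were below TERT. Across the 9 members, Spearman's rho between exon length and beads over input was 0.38 on the miR-491-5p beads and 0.57 on the control beads, against 0.25 and 0.29 across all 12662 genes. These correlations are across genes that share their libraries and are given as a description.

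Other genes of the pathway were taken by 5 lists, chosen like the members with earlier results of these data known. They hold 47 genes, of which 44 were tested, 2 were called higher by enrichment (ACD and MXD1), near the 4.46% of all genes tested, and 0 lower, against 5.32%. With total counts 3 were called higher, WRAP53 being the added gene, when 888 of the 12662 genes tested were called higher. The median was -0.05, or 0.13 with total counts. None exceeded TERT, which was chosen for its high enrichment, so nothing is read from this.

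ACD, or TPP1, the shelterin protein that recruits telomerase, had normalised counts of 453, 459, 517 and 218. The control pull-down was the low library and the other 3 were alike. Its enrichment was 1.26 (0.96 to 1.55), with 0.02 on the miR-491-5p beads over input and -1.24 on the control beads. The 2.94 of TERT on the miR-491-5p beads over input was higher. That value is part of the enrichment that chose TERT, so nothing is read from this.

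The 13 accessory genes tested in the list with ACD had a median enrichment of -0.29, with 3 above and 10 below 0 (4 and 9 with total counts). The lowest was TNKS2, a tankyrase that modifies TERF1, at -0.61. MXD1, a partner of MAX that represses MYC target genes, had normalised counts of 1253, 2743, 1223 and 1162, with the miR-491-5p pull-down high and the other 3 alike. Its enrichment was 1.20 (1.05 to 1.36), with 1.13 on the miR-491-5p beads over input and -0.07 on the control beads. The 11 regulators of TERT transcription had a median of -0.07, or 0.11 with total counts, from GABPA, a subunit of an ETS factor, at -0.74 to MXD1.

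Of the 10 listed genes of telomerase assembly, 9 were tested and 8 had an enrichment above 0 under every scaling. The median was 0.62, against 0.00 over all genes tested. Intervals lay above 0 for 6 of the 9 and below 0 for 1, or for 8 and 1 with total counts. Total counts raised the median of all genes by 0.18, and the share of all genes with such intervals is not given. WRAP53, or TCAB1, which directs telomerase to Cajal bodies, was the highest at 0.90, and COIL, the coilin of Cajal bodies, the lowest at -0.72. On the control beads over input 5 of these 9 were called lower, against 10% of all genes tested, with a median of -1.17. On the miR-491-5p beads 1 was called lower (GAR1), against 4.96% of all genes, with a median of -0.56. With total counts 0 were called lower, against 130 of the 12662 genes tested. GAR1, which was named after its values were seen and which replaces NAF1 in the mature particle with DKC1, NOP10 and NHP2, was at -1.16 on the miR-491-5p beads and -1.24 on the control beads, near NOP10, and its enrichment was 0.07 (-0.10 to 0.24).

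The 9 genes that process the end of TERC had a median enrichment of -0.05, or 0.13 with total counts, between PARN, a deadenylase that trims it, at -0.55 and EXOSC10, a nuclease of the exosome that shares 39.3% of its exonic bases with other genes, at 0.57. In the CST complex, which ends telomerase action and helps fill in the other strand, CTC1 was at 0.45 and STN1 at 0.44, and TEN1 was not tested.

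**Figure D4:**
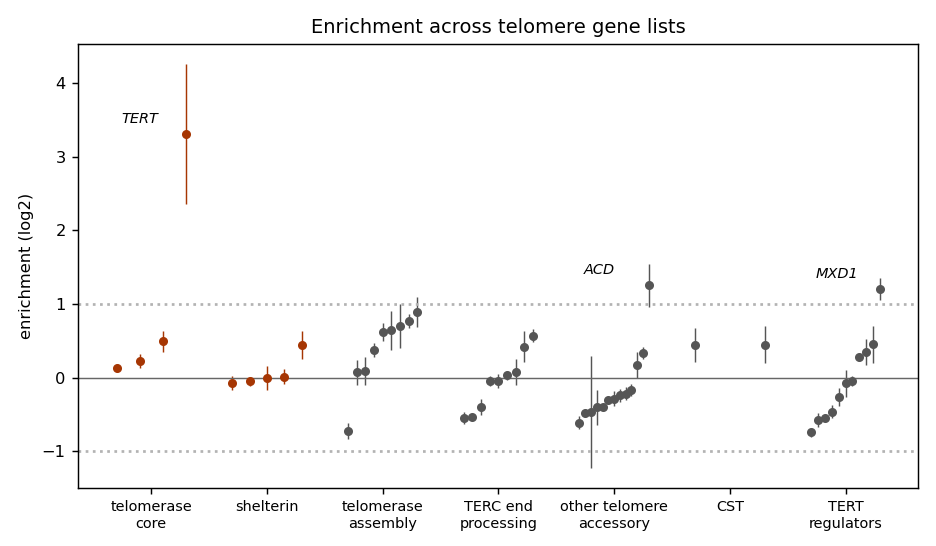
Enrichment, on a log2 scale with 95% counting intervals, of each gene tested in the 2 lists of members (left, coloured) and in the 5 lists of other telomere genes; dotted lines mark 2-fold. The 3 called genes are labelled: TERT at 3.31, ACD at 1.26 and MXD1 at 1.20.

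None of the tested genes next to TERT on chromosome 5 reached its enrichment. TERT was chosen for that value, so nothing is read from this. Of 8 listed neighbours 4 were tested, and NKD2, SLC6A19, SLC6A18 and SLC6A3 had 0, 3, 4 and 17 reads over the 4 libraries. CLPTM1L, a membrane protein gene that lies 22.7 kb from TERT, had normalised counts of 6605, 5188, 5718 and 41517. Its high library was the control pull-down, at an enrichment of -3.21 (-3.28 to -3.14), the 11th lowest of the genes tested, and 2.86 on the control beads over input.

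SLC12A7, a potassium chloride cotransporter gene on the other side of TERT, had a pull-down ratio of 1.21 (0.97 to 1.45), miR-491-5p beads over input of 1.32 (1.06 to 1.57), both called higher, and an enrichment of 0.79 (0.36 to 1.23). LPCAT1, an enzyme of phospholipid remodelling, had an enrichment of -0.13 (-0.31 to 0.04), and MRPL36, a mitochondrial ribosomal protein gene, one of -0.73 (-0.90 to -0.57).

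**Figure D5:**
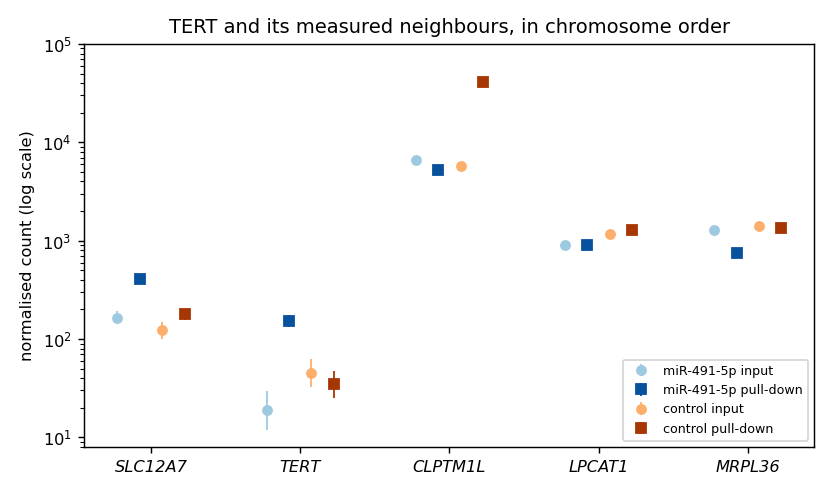
Normalised counts, on a log axis with 95% counting intervals, of TERT and its 4 tested neighbours in the 4 libraries, in chromosome order. TERT is highest in the miR-491-5p pull-down (151) and CLPTM1L in the control pull-down (41517).

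The genes whose profile over the 4 libraries lay nearest to that of TERT were found by the Euclidean distance between log2 normalised counts centred on each gene's mean. They were RAVER1 (distance 0.43), MLLT6 (0.51), XRCC3 (0.62), STK40 (0.62) and CDCA4 (0.68). RAVER1, an RNA-binding protein gene, had normalised counts of 285, 1521, 649 and 431, so its libraries had the same order as those of TERT, and its enrichment was 3.00. XRCC3, a gene of homologous recombination, shares 76.7% of its exonic bases with other genes and RAVER1 38.1%, so their counts are uncertain. The other 8 members lay at distances of 2.30 (TINF2) to 2.96 (NOP10) from TERT.

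TERT was 1 of 8 among the 12662 genes tested that were called both higher by pull-down ratio and lower by input ratio. Both ratios are parts of the enrichment that chose TERT, so nothing is read from this count. The others were NR0B2, STK40, TM4SF1, FAM222B, RAVER1, SAMD4B and GPX1P1, named after their values were seen. TERT had 279 reads over the 4 libraries, the second fewest of the 8 after GPX1P1 with 232.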

How the data were processed

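The members and gene lists were chosen with earlier results of these data known. The authors deposited raw counts of reads for each gene, without normalization, and the members' exonic lengths come from the same table. Per the file headers, featureCounts 1.5.0-p1 counted reads against hg38 and the GENCODE 24 annotation, ignored strand, and dropped duplicate-marked reads and those over more than 1 gene. STAR and DESeq2 1.10.1 are also named, per the submitters' processing notes. Each count column was matched to its library by the sample title. Genes were named by RefSeq positions on GRCh38.p14, which named 40603 of 60554 rows and all 10 members; TERC was taken by its identifier. SHQ1 and DAXX of the lists were unmatched.

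Counts were scaled with DESeq2 1.42.0 size factors (miR-491-5p input 0.957 and pull-down 1.24; control input 0.778 and pull-down 1.13), and genes needed a mean normalised count of at least 50. A counting interval is 1.96 standard errors on each side, with 0.5 added to each count. Beads against input was tested with edgeR 4.0.16 in R 4.3.3, with TMM factors on the genes tested. Ratios used Python 3.11.15. Both calculations were tested on simulated data. From the other lists the text names each called gene and the highest and lowest by enrichment, with the listed neighbours, BCL2L1 and the 5 genes nearest to TERT. Alternatives were edgeR TMM or total counts as the scaling, a pseudocount of 5, a count minimum of 10, 1.5-fold, no transfection block and DESeq2's Wald test.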

Additional observations from a re-analysis of the deposited data

Results flagged for a closer look

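TERT on the beads over its own input had opposite signs in the 2 transfections, with a log2 value of 2.94 on the miR-491-5p beads and of -0.37 on the control beads. The interval of the control value included 0. The difference between these transfections was not tested, as each group has 1 library. With DESeq2 size factors none of the other 8 members had opposite signs. With total counts TINF2 (0.17 on the miR-491-5p beads, -0.46 on the control beads) and TERF2 (0.09 and -0.08) did.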

How the results depend on the processing

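Each group has 1 library, so no library could be left out of a comparison, and depth limits TERT (18 reads in the miR-491-5p input) and TERC (0 or 1 read) in particular. Of the alternatives for the counts of called genes, 35 stayed within 1.5 times the count reported and 5 did not. With total counts, 1 member was called on the miR-491-5p beads, and 3 in place of 2 other telomere genes by enrichment. Over all 12662 genes tested, 888 in place of 565 were then called higher by enrichment. At 1.5-fold, 5 members were called on the miR-491-5p beads (1 higher and 4 lower) and 6 on the control beads (all lower). By enrichment 10 of the other telomere genes were (7 higher and 3 lower). The share of all genes called at 1.5-fold is not given, so nothing is read from these counts. Without the transfection block, edgeR called 1 member. For the members' own ratios, 111 alternatives gave the same result, 28 moved the value outside its counting interval, 1 (NOP10 on the miR-491-5p beads with total counts) lost the call, and 0 reversed a called value. The pull-down ratio of TERF2 also changed sign, from -0.14 to 0.02 with total counts. Over all genes tested, edgeR called 583 higher and 288 lower without the block, 811 and 555 with a count minimum of 10, and 540 and 662 with DESeq2 size factors; DESeq2's Wald test called 483 and 630. The cause of these differences was not tested. The fold of a low gene depends on the pseudocount, and the exact interval of TERT's enrichment without it was chosen after seeing the data.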
